A study of Mus musculus with 6 samples.

Results

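Respiratory complex I was followed through 42 genes whose symbols start with Nduf, out of 22180 genes measured in mouse spleen. They comprise 34 genes named as subunits and the 8 Ndufaf genes, which encode assembly factors. A gene was taken where at least 1 probe set was annotated to its symbol alone, and where several were, the one with the highest mean over all 6 arrays was used. A further 5 protein-coding Nduf genes of RefSeq (Ndufb2, Ndufb4, Ndufb4b, Ndufb4c and Ndufs6) had only probe sets shared with another gene, and Ndufb1 was not analysed here. The mitochondrially encoded subunits mt-Nd1 to mt-Nd6 and mt-Nd4l had no named probe set either.

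Spleens came from 1-year-old mice, 3 overexpressing AIMP2-DX2 and 3 control littermates, each on 1 Affymetrix array. AIMP2 holds together the large assembly of tRNA synthetases, and DX2 is its splice form lacking an exon. The DX2 mice had the genotype CAG-rtTA; TRE DX2/+, in which the widely active CAG promoter drives the doxycycline-dependent activator rtTA. The controls had the genotype 0; TRE DX2 /+, so they had the TRE DX2 transgene and no rtTA. Doxycycline (6.25 mg/kg) was fed in pellets to all mice from 8 weeks of age. With rtTA in the DX2 mice alone, DX2 and rtTA cannot be told apart as the source of a difference. The labels call the samples biological replicates. The comparison asks which transcripts of the complex differed between the groups, and differences are given throughout as DX2 minus control on the log2 scale.

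Complex I takes electrons from NADH to ubiquinone and pumps protons across the inner mitochondrial membrane. Its catalytic core, whose matrix arm is encoded in the nucleus and whose membrane arm is encoded in mitochondrial DNA, is surrounded by accessory subunits, all nuclear. Assembly factors bind the intermediates while the arms are built and are absent from the finished enzyme. In spleen the complex is present in nearly all nucleated cells, and maturing red cells lose their mitochondria.

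The spleens differed in more than genotype. By Xist and the Y-linked Eif2s3y, control 1 and control 2 were female and the 4 other spleens male, which the labels do not state. Cell markers also moved: the mean of 7 measured B cell markers was 1.28 to 2.00 log2 units below the control mean in the DX2 arrays, all 7 being lower without overlap. The mean of 8 red pulp macrophage markers lay 0.59 to 0.73 above it, 6 being higher and Slc40a1 (-0.33) and Hmox1 (-0.03) not, and the mean of 7 markers of dividing cells 0.68 to 1.35 above it. All 6 measured erythroid markers had a difference above 0, with a median of 1.29, and the groups overlapped for each. Their mean relative to the control mean was 2.29, -0.06 and 2.01 in DX2 1, 2 and 3. DX2 1 stood apart, with 6 T cell markers 1.57 below and 8 neutrophil markers 1.80 above the control mean. Since a spleen is a mixture, fewer cells of a type and less RNA per cell cannot be told apart, and the part of these markers in the results below was not tested. Of tissues that could come along with a spleen, exocrine pancreas markers averaged 4.17 to 4.40 on the 6 arrays. Their median difference between groups was 0.03. All 5 adipose markers had a difference below 0, with a median of -0.20, and the groups overlapped for each. Fabp4, the brightest of them, ran from 5.08 in DX2 2 to 8.74 in DX2 1.

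Most complex I subunit transcripts were slightly higher in DX2 spleens, and none of the 42 genes passed the test. Of 34 subunits 31 were higher, against 51.6% of all genes, with a median difference of 0.22, against 0.01 over all genes. The count was again 31 after a second quantile normalization, where Ndufa4l2 turned higher and Ndufs7 lower, and 32 with each array centred on its median, where Ndufa4l2 turned higher. In these settings the median over all genes was 0.07 and 0.10, and the share of all genes above 0 was not counted. Of the 8 Ndufaf factors 5 were higher, with a median of 0.13, or 6 with centred arrays, where Ndufaf3 turned higher. At an adjusted p of 0.05 (limma, Benjamini-Hochberg over all genes) 0 of 42 members were called, while 70 of all genes, 0.316%, were. At an unadjusted p of 0.05, 7 members were higher and 1 lower, where all genes gave 8.13% higher and 7.82% lower. The 3 DX2 values lay wholly above the 3 control values for 11 members and wholly below for 2, where all genes gave 10.7% and 11.2%.

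**Figure D1:**
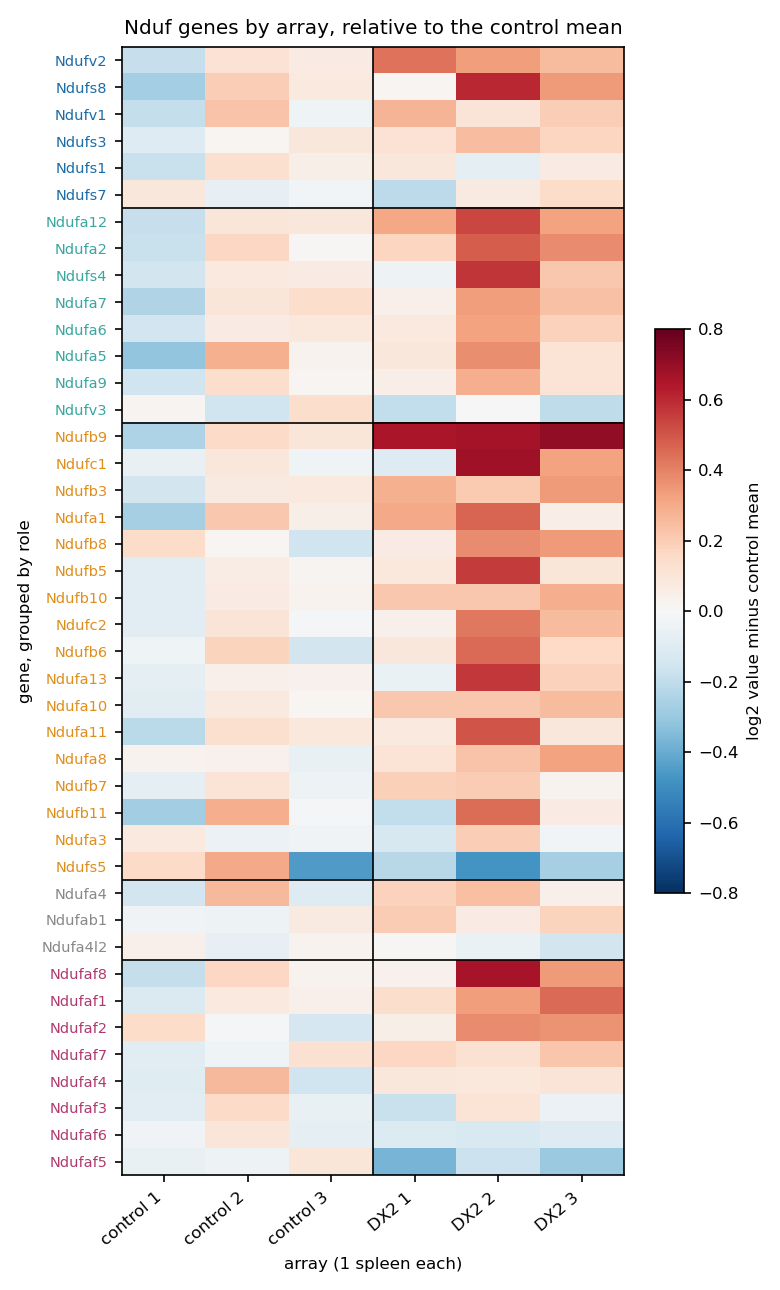
Each row is an Nduf gene and each column the array of 1 spleen, with colour for the log2 value minus the mean of the 3 control arrays; lines separate the catalytic core, the accessory subunits of the matrix arm and of the membrane arm, genes working outside or shared with complex I, and the Ndufaf factors. The control 1 column is the bluest in 27 of 42 rows, the DX2 2 column the reddest in 22, and Ndufb9 is about equally high in all 3 DX2 arrays.

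The upward difference was uneven across the spleens. Averaged over the 34 subunits, the value relative to the control mean was -0.11, 0.10 and 0.01 in controls 1, 2 and 3, and 0.10, 0.31 and 0.17 in DX2 1, 2 and 3. The DX2 1 spleen thus lay at the level of control 2, and the groups overlapped. Control 1 was the lowest of the 6 arrays for 24 of the 34 subunits and DX2 2 the highest for 20. Over all 22180 genes DX2 2 was the highest for 5075, more than any other array. Control 1 was the lowest for 3857 of them, fewer than DX2 1 with 4624. Without control 1 the subunit median was 0.14, and without DX2 2 it was 0.13. Beside this, the 6 erythroid markers were lowest in control 1 (6.54) and next lowest in DX2 2 (7.86), against 8.54 to 10.2 on the other arrays, and the markers of dividing cells were lowest in control 1 (6.83) and highest in DX2 1 (8.83). With a sex term, which compares the DX2 spleens with control 3 alone, the subunit median was 0.20 and 31 of 34 were higher.

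The nuclear-encoded catalytic core carries the flavin and iron-sulphur clusters along which electrons run to ubiquinone. All 6 measured core genes had a difference above 0, with a median of 0.18. Ndufv2, an iron-sulphur subunit at the NADH-oxidising tip, read 7.91, 8.21 and 8.16 in controls 1 to 3 and 8.53, 8.43 and 8.34 in DX2 1 to 3. Every DX2 value was above every control value, and the difference was 0.34 (SE 0.12, adjusted p = 0.237).

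Ndufs8, which holds iron-sulphur clusters on the path to the quinone site, read 8.01, 8.48 and 8.36 in control and 8.29, 8.88 and 8.62 in DX2 spleens. Its groups overlapped, DX2 1 lying below controls 2 and 3, and the difference was 0.32 (SE 0.19, adjusted p = 0.460). Ndufs3, a core subunit of the connecting part of the matrix arm, read 6.02, 6.13 and 6.21 in control and 6.23, 6.37 and 6.29 in DX2 spleens. The groups were narrowly apart, with a difference of 0.18 (SE 0.11, adjusted p = 0.471).

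Of the other core genes, Ndufv1, which binds FMN and NADH, differed by 0.19 (SE 0.13). Ndufs1, the largest core subunit, differed by 0.03 (SE 0.12), and Ndufs7, which holds the last cluster before ubiquinone, by 0.00 (SE 0.13). The sign of Ndufs7 changed in several of the alternatives, so it has no settled direction.

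Accessory subunits of the matrix arm were higher in 7 of 8 cases, with a median of 0.20. Ndufa12, a paralogue of the assembly factor Ndufaf2 that takes its place late in assembly, read 6.81, 7.09 and 7.08 in control and 7.30, 7.52 and 7.31 in DX2 spleens. All 3 DX2 spleens were above all controls, with a difference of 0.39 (SE 0.13, adjusted p = 0.207). A second probe set of Ndufa12 differed by 0.41.

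Ndufa2, a small subunit with a thioredoxin-like fold, read 7.50, 7.84 and 7.68 in control and 7.84, 8.16 and 8.05 in DX2 spleens. DX2 1 and control 2 were nearly equal, and the difference was 0.34 (SE 0.14, adjusted p = 0.279). Ndufa6, an LYR-motif protein that binds the mitochondrial acyl carrier protein, read 7.69, 7.91 and 7.93 in control and 7.92, 8.17 and 8.03 in DX2 spleens. DX2 1 lay between the controls, and the difference was 0.20 (SE 0.12, adjusted p = 0.485).

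Ndufv3, a loosely bound subunit with tissue-specific splice forms, was the exception in the matrix arm. It read 6.59, 6.41 and 6.71 in control and 6.37, 6.57 and 6.37 in DX2 spleens. The groups overlapped, and the difference was -0.13 (SE 0.12, adjusted p = 0.656). Ndufs4, Ndufa5, Ndufa7 and Ndufa9 differed by 0.15 to 0.25, all with overlapping groups.

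In the membrane arm 16 of 17 accessory subunits were higher, with a median of 0.23. Ndufb9, an LYR-motif subunit of the far end of this arm, had the largest difference of all 42 genes. It read 9.30, 9.70 and 9.64 in control and 10.20, 10.21 and 10.26 in DX2 spleens, the DX2 values lying close together and well above all controls. The means were 9.55 ± 0.22 and 10.22 ± 0.03 (SD, n = 3 each), a 1.60-fold difference, or 0.68 (SE 0.13) on the log2 scale. It missed the threshold (limma, adjusted p = 0.0840) and passed with arrays weighted by quality (adjusted p = 0.0416), while over all alternatives the adjusted p ran up to 0.501. Its difference was 0.55 without control 1 and 0.68 without DX2 2.

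Ndufb3, a small subunit of the same arm, read 6.20, 6.42 and 6.43 in control and 6.64, 6.56 and 6.69 in DX2 spleens. Ndufb10, an accessory subunit facing the intermembrane space, read 6.39, 6.55 and 6.51 in control and 6.70, 6.69 and 6.78 in DX2 spleens. Both had separate groups, with differences of 0.28 (SE 0.11, adjusted p = 0.286) and 0.24 (SE 0.10, adjusted p = 0.306). Ndufa10, Ndufa8 and Ndufb5 also had every DX2 value above every control value, at 0.23, 0.22 and 0.25.

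Several membrane arm genes owed much of their difference to DX2 2. Ndufc1 read 7.13 in that spleen against 6.36 in DX2 1 and 6.78 in DX2 3, and 6.40 to 6.55 in control. Ndufa13, known also as Grim19, read 8.36 in DX2 2 against 7.74 and 7.97 in DX2 1 and 3, and 7.72 to 7.83 in control. In both the DX2 1 value lay within or below the control range. The X-linked members Ndufa1 and Ndufb11 differed by 0.27 and 0.11, and by 0.23 and 0.12 with the sex term.

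Ndufs5, a subunit held by disulphide bonds on the intermembrane side, was the only membrane arm member with a negative difference. It read 4.15, 4.30 and 3.55 in control and 3.78, 3.53 and 3.73 in DX2 spleens, controls 1 and 2 being high and control 3 within the DX2 range. The difference was -0.32 (SE 0.20, adjusted p = 0.491), and 0.13 with the sex term. Like that of Ndufa4l2, the probe set is among the 40% dimmest, and the floor of detection is not known. A probe set shared by Ndufs5 and its pseudogene differed by 0.22.

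Some genes carry an Nduf name but work elsewhere or in several places. Ndufa4, now counted as a subunit of cytochrome c oxidase, differed by 0.16 (SE 0.14), and Ndufab1, the mitochondrial acyl carrier protein, by 0.15 (SE 0.10). Ndufa4l2, a hypoxia-induced paralogue of Ndufa4, read 4.60, 4.50 and 4.59 in control and 4.57, 4.51 and 4.41 in DX2 spleens, with overlapping groups. Its difference was -0.06 (SE 0.10, adjusted p = 0.814). Without these genes the median of the subunits was 0.23.

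**Figure D2:**
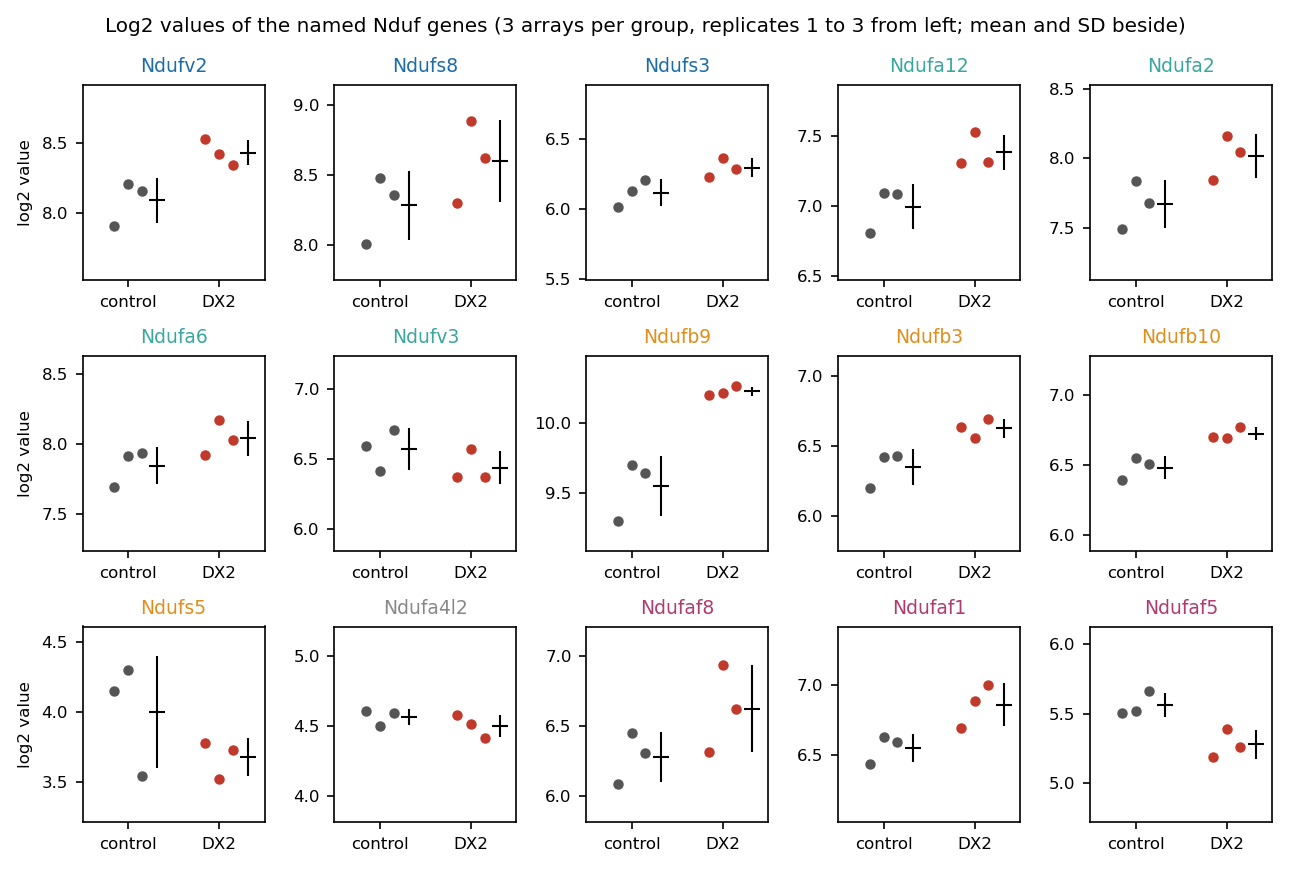
Each panel shows 1 gene, with the log2 value of the 3 control arrays in grey and of the 3 DX2 arrays in red, replicates 1 to 3 from left to right, and beside them the group mean with its SD; every panel spans the same number of log2 units. Ndufb9 shows the widest gap, Ndufaf5 lies lower in DX2, and Ndufs8, Ndufa6, Ndufv3, Ndufs5, Ndufa4l2 and Ndufaf8 overlap.

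The Ndufaf factors were divided in direction. Ndufaf1, a chaperone of the membrane arm intermediate, read 6.43, 6.62 and 6.59 in control and 6.69, 6.88 and 6.998 in DX2 spleens. All DX2 values were above all controls, with a difference of 0.31 (SE 0.12, adjusted p = 0.278). Ndufaf8, a small protein that stabilises Ndufaf5, read 6.09, 6.45 and 6.31 in control and 6.32, 6.94 and 6.62 in DX2 spleens. DX2 1 lay between the controls, and the difference was 0.35 (SE 0.18, adjusted p = 0.402).

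Ndufaf5, a hydroxylase that modifies Ndufs7 early in assembly, went the other way. It read 5.50, 5.52 and 5.66 in control and 5.19, 5.39 and 5.26 in DX2 spleens. Every DX2 value was below every control value, and the difference was -0.28 (SE 0.11, adjusted p = 0.270). It was negative in every alternative fit, between -0.18 with a second quantile normalization and -0.38 with the sex term.

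The remaining factors showed smaller differences. Ndufaf2, the paralogue of Ndufa12 that binds a late intermediate, differed by 0.26 (SE 0.14), and Ndufaf7, a methyltransferase of complex I assembly, by 0.17 (SE 0.11). Ndufaf3 and Ndufaf4, which act together on the quinone-binding part, differed by -0.04 and 0.09. Ndufaf6 was lower by a small amount in all 3 DX2 spleens, at -0.11 (SE 0.10, adjusted p = 0.651), and its function is less well understood.

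The upstream sequences of Ndufaf1, Ndufaf8 and Ndufaf5 are shown because these factors had the largest differences of their class and Ndufaf5 ran against the other 2. Each is the 250 bases before the RefSeq gene start in GRCm38.p6, on the gene's strand, and capitals mark matches to CCGGAAG, the core letters of ETS-family sites, to the CCAAT box, to AAGATGG (YY1) or to TGCGCA (NRF1), on either strand; no matches overlap in these windows. Ndufaf1 lies at chr2:119662835-119663084 on the minus strand, Ndufaf8 at chr11:120098684-120098933 and Ndufaf5 at chr2:140170396-140170645, both on the plus strand.
Ndufaf1: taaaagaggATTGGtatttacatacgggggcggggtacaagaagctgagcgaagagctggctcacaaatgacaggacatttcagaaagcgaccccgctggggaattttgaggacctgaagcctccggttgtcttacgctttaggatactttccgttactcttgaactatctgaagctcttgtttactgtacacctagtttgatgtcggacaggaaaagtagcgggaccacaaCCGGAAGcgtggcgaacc
Ndufaf8: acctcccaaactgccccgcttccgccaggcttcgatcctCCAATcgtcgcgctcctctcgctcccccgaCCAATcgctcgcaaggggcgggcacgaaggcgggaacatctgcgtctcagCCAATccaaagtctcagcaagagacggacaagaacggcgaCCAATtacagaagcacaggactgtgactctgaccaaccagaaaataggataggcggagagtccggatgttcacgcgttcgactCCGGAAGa
Ndufaf5: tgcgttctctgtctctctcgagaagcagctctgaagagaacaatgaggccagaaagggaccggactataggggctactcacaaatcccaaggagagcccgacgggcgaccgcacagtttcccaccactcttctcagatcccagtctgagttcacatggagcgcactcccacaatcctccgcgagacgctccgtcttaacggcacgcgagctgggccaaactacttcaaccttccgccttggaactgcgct

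CCGGAAG began 18 bases before the start in Ndufaf1 and 8 bases before it in Ndufaf8, CCAAT occurred 4 times in Ndufaf8 and once, inverted, in Ndufaf1, and none of these letters was in the Ndufaf5 window. Of 37 members with a window in the RefSeq table, 5 (Ndufaf1, Ndufaf8, Ndufb6, Ndufb7 and Ndufs3) held CCGGAAG, 13.5% against 6.91% of all 32851 windows. TGCGCA was in 6 members (Ndufa5, Ndufa6, Ndufa9, Ndufaf4, Ndufb6 and Ndufs5), 16.2% against 6.43% of windows. CCAAT was in 11 members, 29.7% against 33.8% of windows, and AAGATGG in 0 against 4.49%. The member shares count genes, some with more than 1 window. Of the 39 member windows 5 held CCGGAAG, 7 TGCGCA and 11 CCAAT. The median difference was 0.23 for members with CCGGAAG and 0.21 for those without, and 0.17 and 0.23 for TGCGCA. These matches describe letters in the windows and no binding.

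**Figure D3:**
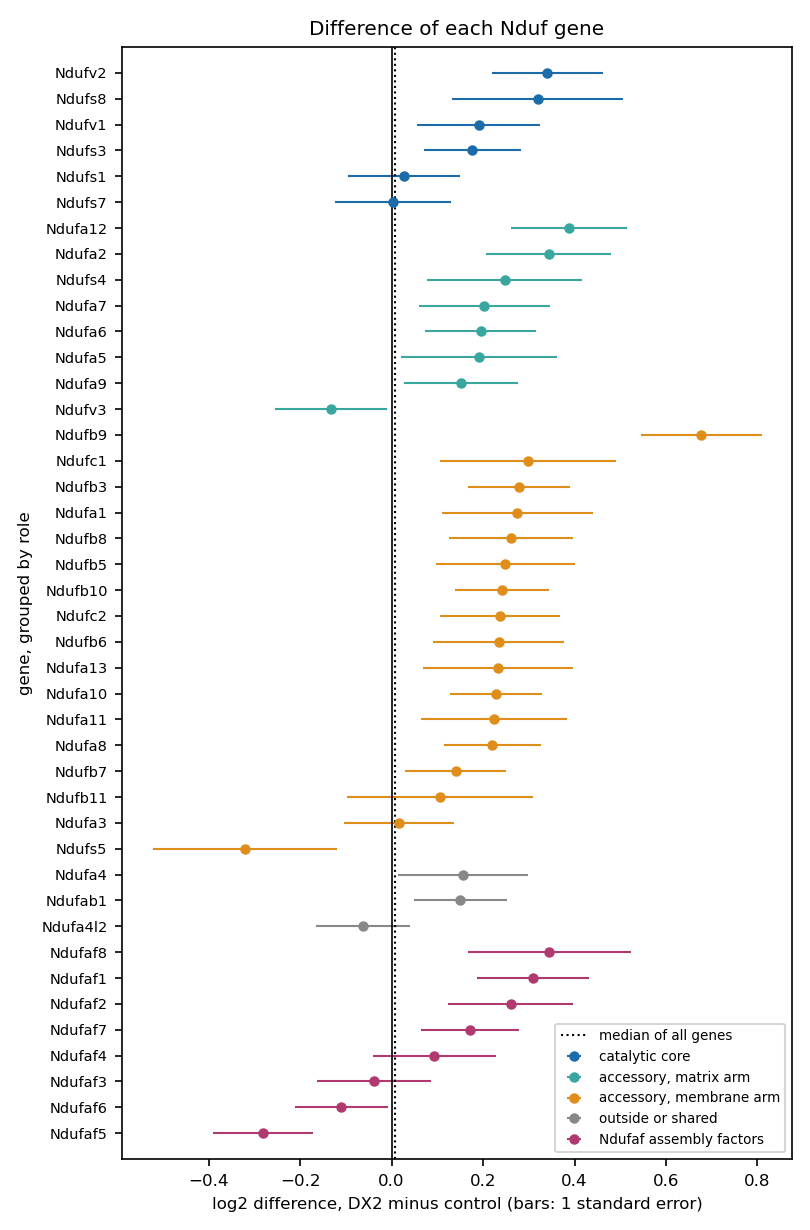
The log2 difference, DX2 minus control, is drawn for each of the 42 genes as a point with a bar of 1 standard error, coloured by role, with the median of all genes as a dotted line. Most subunits lie between 0.1 and 0.4, Ndufb9 lies beyond them, and the Ndufaf factors spread to both sides of 0.

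Set side by side, subunits and Ndufaf factors differed by 0.09 in their medians (0.22 against 0.13). The mean shift of the subunits exceeded that of the factors by 0.12 in DX2 1, 0.13 in DX2 2 and 0.04 in DX2 3, while in controls 1, 2 and 3 the same gap was -0.04, 0.02 and 0.03. The DX2 values were thus above the control values, with DX2 3 close to them. Without DX2 2 the medians were 0.13 and 0.14 and their gap was -0.02, so the order of the medians rested on that spleen. The gap in mean shift was nearly as large in DX2 1 (0.12) as in DX2 2 (0.13). Of the assembly factors without an Nduf name 2 of 8 were higher, with a median of -0.07. Acad9, Tmem186, Ecsit and Tmem126b lay between -0.10 and -0.04 (SE 0.11 to 0.14), and Timmdc1 at 0.08 (SE 0.10). This list was not counted with centred arrays. Tmem70, which helps complex I and ATP synthase assemble, differed by 0.34 (SE 0.12, adjusted p = 0.235), while Foxred1 and Nubpl, which act in assembly and iron-sulphur supply, differed by -0.13 and -0.14.

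The small upward difference was shared with the rest of the respiratory chain. Of 37 measured genes of complexes II to V 35 were higher, with a median of 0.27 and 0 called. The medians were 0.27 for complex II, 0.31 for complex III, 0.36 for complex IV and 0.18 for complex V. Cox7b of cytochrome c oxidase differed by 0.60 (SE 0.15, adjusted p = 0.121) and Atp5b, the catalytic beta subunit of ATP synthase, by 0.46 (SE 0.10, adjusted p = 0.102). DX2 2 was again the highest array, at 0.39 above the control mean against 0.17 and 0.21 in DX2 1 and 3. All 10 genes listed as markers of mitochondrial mass were higher, with a median of 0.30 and 0 called, among them the import pore Tomm40 at 0.48 and the outer membrane channel Vdac1 at 0.41.

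Regulators of mitochondrial gene expression did not follow that direction. Of 10 measured, 2 were higher and 8 lower, with a median of -0.04 and 0 called. Several lay near 0: Gabpa, Pprc1, Nrf1 and Polrmt between -0.04 and -0.01 (SE 0.10 to 0.12), and Tfb2m at 0.02 (SE 0.17). The list was not counted with centred arrays, where the all-gene median was 0.10. The coactivator Ppargc1a, which drives mitochondrial biogenesis in many tissues, read 4.46, 4.38 and 4.47 in control and 3.77, 3.93 and 3.87 in DX2 spleens. Its groups did not overlap, and the difference of -0.58 (SE 0.10) missed the threshold (adjusted p = 0.0733). Its probe set too is among the 40% dimmest. Yy1, a transcription factor of many mitochondrial genes, differed by 0.36 (SE 0.11, adjusted p = 0.181), and Esrra, a nuclear receptor that activates respiratory chain genes, by -0.13 (SE 0.10, adjusted p = 0.596).

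**Figure D4:**
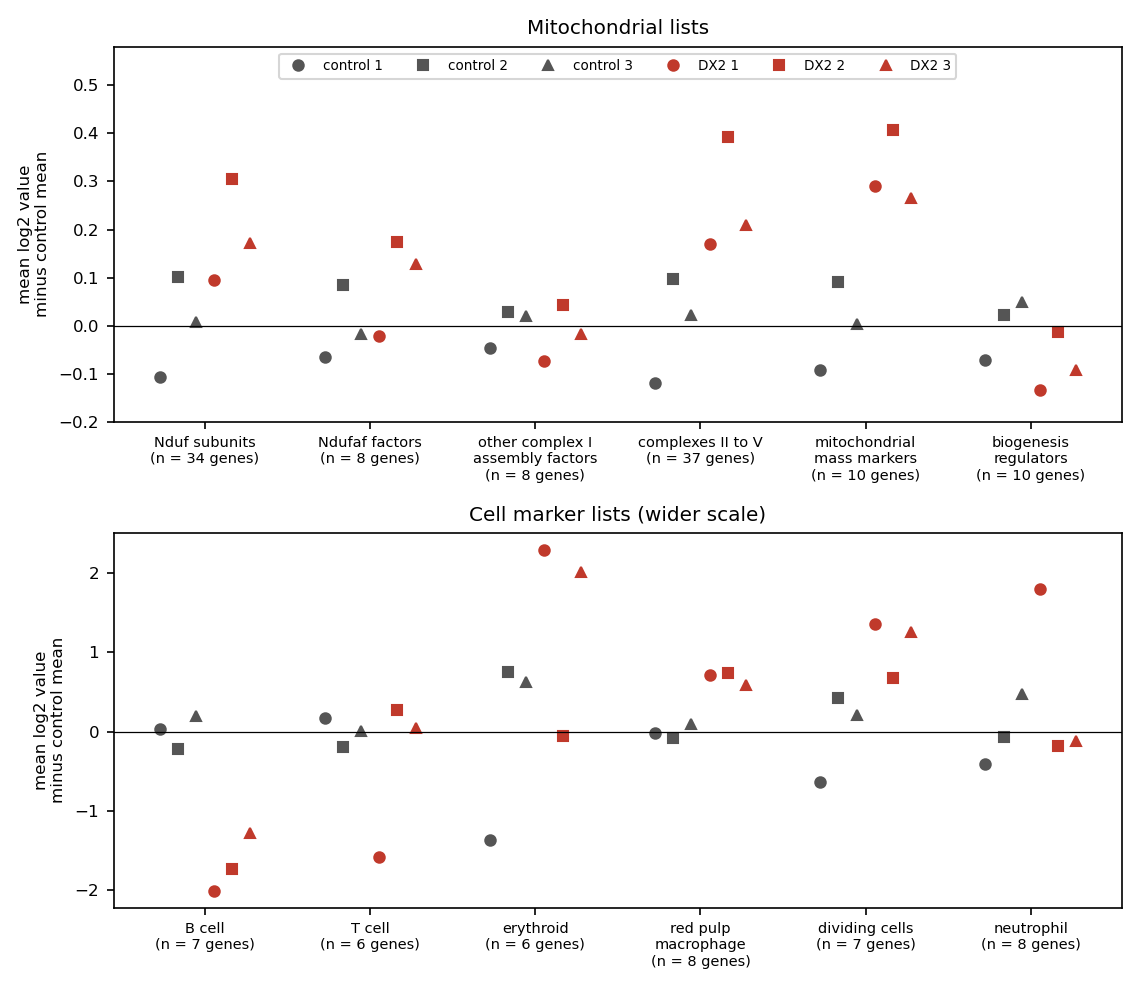
Each point is the mean log2 value of a gene list on 1 array minus its control mean, control in grey and DX2 in red, with the replicate number as the symbol; the upper panel shows mitochondrial lists and the lower panel cell markers on a wider scale. For the Nduf subunits control 2 (0.10) and DX2 1 (0.10) coincide and DX2 2 is highest (0.31), whereas the B cell markers lie at least 1.28 lower in every DX2 array.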

How the data were processed

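RNA from 6 spleens was hybridised to 1 Affymetrix array each, and the authors deposited 1 table of log2 expression values for 41345 probe sets. Per the submitters' processing notes RMA was used, a method of background correction, normalization between arrays and probe set summary that can compress large folds; no version is stated. The log2 scale was inferred from the values, which run from 0.771 to 13.3. Precision is limited by the number of arrays, and the median standard error of a member's difference was 0.13.

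By GEO's platform annotation 23521 probe sets had 1 gene symbol, 1814 several and 16010 none; only the first were used, giving 22180 genes. Groups came from the sample titles. Differences were fitted over all genes without covariate or filter (lmFit and eBayes of limma 3.58.1 under R 4.3.3), with Benjamini-Hochberg adjustment and a threshold of 0.05. A check on simulated data came first, with planted differences of at least 1 log2 unit, larger than that of any member. No test was run over the members or lists, which were chosen with earlier results of these data known. Values are given for every array for the 3 members of smallest p in each of 4 role classes (catalytic core, accessory subunits of either arm, Ndufaf factors), the 3 most negative subunits and the most negative factor, and up to 3 genes of each other list are named; further members were named after their values were seen. Promoter windows were matched by symbol to RefSeq (GRCm38.p6) for 37 of 42 members. Alternatives were a replicate block, each array left out, a filter on dim genes, a mean-variance trend, array weights, a second quantile normalization, median centring, the mean of a gene's probe sets, a sex term and an adjusted p of 0.1.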

Additional observations from a re-analysis of the deposited data

How the results depend on the processing

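No Nduf member passed in any fit except Ndufb9 with array weights (1 member, adjusted p = 0.0416) and at an adjusted p under 0.1 (1 member, again Ndufb9). With single arrays left out the subunit median ranged from 0.13 to 0.27, the Ndufaf median from 0.08 to 0.19, their gap from -0.016 to 0.12, and the members called from 0 to 0. Centring the arrays (median of all probe sets) moved the all-gene median from 0.01 to 0.10 and the Ndufaf median to 0.22 (subunits 0.31). Across genes, 70 calls became 1 to 370 with an array left out (370 without DX2 2, and 1, 1, 5, 8 and 1 without control 1, 2, 3, DX2 1 and 3), 125 without the 40% dimmest genes, 547 with array weights, 2 with centred arrays, 2 with the sex term and 394 at an adjusted p under 0.1. Of 208 values under alternatives of the 15 members with all 6 values printed, 3 changed sign: Ndufa4l2 with a second quantile normalization (0.014) or centred arrays (0.028), and Ndufs5 with the sex term (0.13); the cause was not tested. Of the other members Ndufs7, Ndufs1, Ndufa3, Ndufb11 and Ndufaf3, all near 0 or with a wide error, changed sign in at least 1 alternative. Same-numbered arrays correlated in their deviations from the group means at -0.32, -0.14 and 0.07 over all genes, so no pairing by number was visible. These correlations cannot exclude a pairing, since sex and cell markers also differed between the spleens. With the number as a replicate block 0 members and 1 gene were called, and the medians, 0.22 and 0.13, are the same by construction. The smallest differences, such as those of Ndufs7 and Ndufaf3, lay within 1 standard error of 0. With 3 arrays per group not even the largest member difference, 0.68 for Ndufb9, passed the threshold in the main fit.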

Other observations

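A further 6 probe sets name an Nduf gene together with another gene and were left out of the comparisons, since their signal cannot be assigned. The brighter of the pair shared by Ndufs6 and its pseudogene Ndufs6b read 7.88, 8.27 and 8.24 in control and 8.56, 8.71 and 8.54 in DX2 spleens, a difference of 0.47, and the other differed by 0.08. The probe set shared by Ndufb2 and Adck2 differed by 0.29, the one shared by Ndufb4, Ndufb4b and Ndufb4c by 0.17, and the one shared by Ndufs1 and Ino80dos by -0.06, while Ndufs1 on its own probe set differed by 0.03; for Ndufs5 the shared probe set (0.22) and its own (-0.32) also differed in sign. Where a member had a second probe set annotated to it alone, both lay in the same direction: Ndufa8 at 0.22 and 0.29, Ndufa11 at 0.22 and 0.23, and Ndufa12 at 0.39 and 0.41.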
